A study of Homo sapiens with 28 samples.

Results

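The subject is a set of 9 genes for enzymes that make pyrimidine nucleotides and deoxynucleoside triphosphates (dNTPs): CAD, DHODH, UMPS, CTPS1, CTPS2, RRM1, RRM2, TYMS and TK1. They were chosen by name, for their place in the pathway, from the gene expression tables of a study of RUVBL1. Earlier results of these data were known when they were chosen. RUVBL1 is an ATPase that works with its partner RUVBL2 as a chaperone of large protein complexes. All 9 had values in every table, of 13481 genes for the compounds, 12068 named genes for the siRNA in H2009 and 12384 for the siRNA in H596, and all 9 passed the filter on low values (a mean of at least 1 FPKM, a measure of fragments scaled to transcript length and to the mapped reads of a library). RNA was measured in 2 established human non-small-cell lung cancer lines, NCI-H2009 and NCI-H596, both labelled wild type and adenocarcinoma, in 20 libraries with 2 per group. Cells received an siRNA against RUVBL1 (siBL1) or a non-targeting siRNA (siNT), and were harvested after 2.5 days (H2009) or 3 days (H596). Others were treated for 24 h with 100 nM of compound B or 100 nM of compound C, which are known here only by those names, or were left untreated. The labels name no vehicle group, and another label of the study calls compound B an inhibitor of RUVBL1 and RUVBL2.

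CAD carries the first 3 activities of pyrimidine synthesis, and DHODH and UMPS complete the route to uridine monophosphate (UMP), DHODH at the inner mitochondrial membrane. CTPS1 and CTPS2 turn UTP into CTP, and the ribonucleotide reductase subunits RRM1 and RRM2 turn ribonucleotides into deoxyribonucleotides. TYMS makes thymidylate from dUMP with a folate carrier, and TK1 salvages thymidine to the same product. RRM2, TYMS and TK1 are known for RNA or protein that is highest in S phase, and several of these enzymes are targets of antiproliferative drugs.

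The knockdown was visible in its target. RUVBL1 was at 1.75 and 1.11 FPKM with siBL1 in H2009, against 87.8 and 64.3 FPKM with siNT, and at 2.26 and 2.52 FPKM with siBL1 in H596, against 111.9 and 123.4 FPKM with siNT. Its partner RUVBL2 differed by 0.07 in H2009 and by -0.23 in H596 on the log2 scale. All 6 epithelial markers listed averaged at least 1 FPKM in both lines. The 4 squamous markers listed (TP63, KRT5, KRT6A and KRT14) summed to between 1077 and 1766 FPKM per library in H596 of the compound table and to between 0.58 and 1.74 FPKM in H2009, although both lines carry the label adenocarcinoma, and NKX2-1, the 1 adenocarcinoma marker of 4 with values in that table, was at between 0.33 and 1.04 FPKM in H596 and at between 18.7 and 116.6 FPKM in H2009. The read depth behind an FPKM value is unknown, and in these bulk cultures fewer cells of a kind and less RNA per cell cannot be told apart.

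Differences were tested with limma on log2(FPKM + 1) over all genes of a table. The unpaired fit used group means alone. Libraries with the same replicate number deviated together, so a paired fit, in which each line has its own term for the replicate number, is given beside it. The fold changes are identical in both, each SE below is that of the unpaired fit, and "called" means a Benjamini-Hochberg adjusted p under 0.05. Since the labels do not say what a replicate number marks or that replicates were separate cultures, the p-values speak only of the spread among these libraries.

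In untreated cells the subunits of ribonucleotide reductase and the thymidylate enzymes stood above the enzymes of UMP and CTP synthesis. In untreated H2009 the order of the mean levels was RRM2 (136.8 FPKM), RRM1 (109.9 FPKM), TYMS (101.9 FPKM), TK1 (90.5 FPKM), CTPS1 (28.8 FPKM), CAD (18.1 FPKM), DHODH (8.48 FPKM), UMPS (7.27 FPKM) and CTPS2 (5.60 FPKM). Neighbours among the first 4 of these overlapped in their 2 libraries, whereas each of the lower 5 lay apart from its neighbours. In untreated H596 the order of the first 6 was the same, led by RRM2 at 222.4 FPKM and RRM1 at 211.5 FPKM, whose libraries overlapped, as did those of TK1 and CTPS1; UMPS, CTPS2 and DHODH followed, with DHODH lowest at 6.57 FPKM.

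Between the untreated lines, UMPS and RRM1 were called as higher in H596 in the unpaired fit. UMPS was at 12.7 and 13.2 FPKM in H596, against 7.19 and 7.36 FPKM in H2009, a log2 difference of 0.75 (SE 0.17, adjusted p = 0.00614 by limma). RRM1 was at 176.3 and 246.6 FPKM in H596, against 94.97 and 124.8 FPKM in H2009, a log2 difference of 0.93 (SE 0.29, adjusted p = 0.025 by limma). In both genes all libraries of H596 lay above those of H2009, as in 4 of the 9 members and in 37.8% of all genes. DHODH lay lower without overlap, as did 31.4% of all genes. These 2 called members stand against a background of 43.3% of all 12781 genes called between the lines by that fit, 24.1% as higher. The paired fit called 69.3% of all genes, 38% as higher and 31.3% as lower. It also called CTPS2 (0.38) and RRM2 (0.69) as higher and DHODH (-0.32) and TK1 (-0.73) as lower. The paired call of RRM2 held when any 1 of the 4 libraries was left out, that of DHODH was lost without any one of them (adjusted p from 0.0791 to 0.34) and with log2(FPKM + 0.1) (0.0567), that of CTPS2 without H596 replicate 1 (0.16) or H2009 replicate 2 (0.0511) and after quantile normalization (0.107), and that of TK1 without H2009 replicate 1 (0.0969). The median of all genes was 0.08 on the log2 scale and -0.04 after quantile normalization. After that scaling UMPS was at 0.59 and RRM1 at 0.86, both still called, and DHODH was called as well, at -0.49. The unpaired call of RRM1 was lost without replicate 2 of untreated H596 (0.69, adjusted p = 0.159) or replicate 1 of untreated H2009 (0.74, adjusted p = 0.144), and that of UMPS held without any 1 of the 4 libraries.

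Promoter sequences of 300 bases, from 250 before to 50 after each annotated start, were taken from RefSeq (GRCh38.p14, a later build than the hg19 of the deposited values), and all 9 members matched, with 13 windows. They were searched on both strands for CCAAT, for the E-box CACGTG and for the E2F octamers TTTGGCGC, TTTCCCGC, TTTCGCGC and TTTGCCGC, motifs that did not overlap in these windows. CCAAT was found in 6 of the 13 windows and in 5 of the 9 members, and in 34.6% of all 35116 promoter windows of that length. The E-box was found in 1 member (DHODH) and in 7.26% of all windows, and an E2F octamer in 1 member (TYMS) and in 3.31% of all windows. Shown are the windows of RRM2, the member with the most CCAAT matches and the lowest log2 change after siBL1, of DHODH and CTPS1, the 2 members called in the unpaired fit after compound B, of TYMS, with the E2F octamer, and of TK1, which was called in no comparison of treatments in H2009. RRM2, CTPS1 and TK1 have a further window each, from another start. Capitals mark the matches, which read ATTGG or GCGGGAAA where the motif lies on the strand opposite the gene.
RRM2 promoter, chr2:10122489-10122788, plus strand: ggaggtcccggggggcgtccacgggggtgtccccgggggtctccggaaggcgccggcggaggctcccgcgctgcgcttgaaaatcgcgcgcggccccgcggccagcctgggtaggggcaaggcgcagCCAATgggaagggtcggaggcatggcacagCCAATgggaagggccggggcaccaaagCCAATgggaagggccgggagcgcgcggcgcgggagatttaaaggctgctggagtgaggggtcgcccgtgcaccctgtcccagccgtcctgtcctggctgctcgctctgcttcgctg
DHODH promoter, chr16:72008494-72008793, plus strand: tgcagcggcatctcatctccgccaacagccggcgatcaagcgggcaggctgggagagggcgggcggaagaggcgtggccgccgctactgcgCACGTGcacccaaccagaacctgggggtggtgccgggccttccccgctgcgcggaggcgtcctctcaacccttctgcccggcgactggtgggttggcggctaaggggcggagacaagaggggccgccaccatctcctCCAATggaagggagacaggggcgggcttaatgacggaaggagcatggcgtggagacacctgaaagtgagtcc
CTPS1 promoter, chr1:40979446-40979745, plus strand: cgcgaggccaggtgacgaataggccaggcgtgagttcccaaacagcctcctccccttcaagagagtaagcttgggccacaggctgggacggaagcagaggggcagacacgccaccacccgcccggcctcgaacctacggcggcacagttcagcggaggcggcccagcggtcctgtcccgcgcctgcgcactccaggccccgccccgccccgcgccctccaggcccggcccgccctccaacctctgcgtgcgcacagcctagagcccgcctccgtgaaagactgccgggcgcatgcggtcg
TYMS promoter, chr18:657403-657702, plus strand: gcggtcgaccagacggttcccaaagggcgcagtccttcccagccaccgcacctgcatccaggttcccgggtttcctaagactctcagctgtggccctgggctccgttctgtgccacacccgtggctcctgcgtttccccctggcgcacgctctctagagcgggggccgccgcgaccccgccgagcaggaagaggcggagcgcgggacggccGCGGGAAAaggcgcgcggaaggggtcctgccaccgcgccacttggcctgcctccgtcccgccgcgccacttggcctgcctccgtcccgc
TK1 promoter, chr17:78187003-78187302, minus strand: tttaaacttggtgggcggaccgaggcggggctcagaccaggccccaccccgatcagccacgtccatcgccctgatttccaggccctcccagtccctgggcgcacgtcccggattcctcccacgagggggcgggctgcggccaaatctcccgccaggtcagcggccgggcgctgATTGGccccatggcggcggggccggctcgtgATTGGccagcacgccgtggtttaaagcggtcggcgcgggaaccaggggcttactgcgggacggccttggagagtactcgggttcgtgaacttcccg
The RRM2 window shown holds CCAAT with its first base at -123, -93 and -66 relative to the start. The TK1 window shown holds it on the opposite strand at -77 and -46. Of the further windows, that of RRM2 holds 1 CCAAT, at -249, and that of TK1 holds none of the motifs searched. In DHODH the E-box begins at -159 and CCAAT at -22, and neither CTPS1 window has any of the motifs searched. A match is a description of these letters, and the absence of one says only that the letters are not in this window.

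Knockdown of RUVBL1 in H2009 gave lower values for most of the enzymes, largest for RRM2 and CTPS1. The unpaired fit called 0 of 11223 genes (0%), though 532 had p under 0.05 before adjustment. The paired fit called 42.4% of them, 1733 as higher and 3025 as lower (15.4% and 27%). After quantile normalization the paired fit called 2923 as higher and 2845 as lower, so the split between directions depended on the scaling. Of the 9 members the unpaired fit called 0 and the paired fit 7, all lower (6 after quantile normalization, without RRM1 at adjusted p = 0.0612). The median log2 change was -0.61 over the members and -0.08 over all genes tested. All libraries with siBL1 lay below both siNT libraries for 5 members and above both for 1, against 18.9% and 12.1% of all genes. The paired fit leaves 1 residual degree of freedom in a table of 4 libraries, so its errors lean on the spread shared with the other genes. Of the 6 epithelial markers that fit called 3 as lower and 0 as higher (median -0.32), and NKX2-1 was at -0.59 (paired adjusted p = 0.00278 by limma), and their part in the members' values was not tested.

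Of the UMP synthesis enzymes in H2009, CAD was at 8.55 and 3.28 FPKM in replicates 1 and 2 with siBL1, against 16.9 and 7.95 FPKM with siNT. Each siBL1 library was below its siNT partner, but replicate 1 with siBL1 lay above replicate 2 with siNT, so the groups overlapped. The log2 change was -0.98 (SE 0.58, unpaired adjusted p = 0.988, paired adjusted p = 0.000671 by limma). DHODH was at 5.24 and 3.42 FPKM with siBL1, against 6.85 and 5.63 FPKM with siNT, with no overlap and a log2 change of -0.46 (SE 0.33, paired adjusted p = 0.0237 by limma). UMPS went the other way, at 7.01 and 6.63 FPKM with siBL1, against 6.59 and 5.66 FPKM with siNT, a log2 difference of 0.14 that was called in neither fit (paired adjusted p = 0.402 by limma).

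Both CTP synthases were lower with siBL1 in H2009. CTPS1 was at 11.9 and 6.84 FPKM with siBL1 in H2009, against 36.4 and 21.9 FPKM with siNT, and both siBL1 libraries were below both siNT libraries. Its mean was 67.9% below that of siNT, a log2 change of -1.54 (SE 0.44), and it was -1.54 within each replicate number. The unadjusted p was 0.019 and the adjusted p = 0.967 in the unpaired limma fit, against an adjusted p = 0.000154 in the paired fit. CTPS2 was at 5.14 and 5.39 FPKM with siBL1, against 7.83 and 9.41 FPKM with siNT, also without overlap, at a log2 change of -0.61 (SE 0.29, paired adjusted p = 0.00557 by limma).

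Ribonucleotide reductase showed its lower values mainly in RRM2, the subunit that carries the radical cofactor. RRM2 was at 29.4 and 13.8 FPKM with siBL1 in H2009, against 112.4 and 49.9 FPKM with siNT. The groups did not overlap although replicate 1 held more than replicate 2 in both, and the log2 change was -1.84 (SE 0.58, unadjusted p = 0.028, unpaired adjusted p = 0.967, paired adjusted p = 7.8e-05 by limma), with -1.90 and -1.78 within replicates 1 and 2. RRM1, the catalytic subunit, was at 80.0 and 87.9 FPKM with siBL1, against 110.4 and 107.2 FPKM with siNT, a log2 change of -0.37 (SE 0.29, paired adjusted p = 0.0204 by limma). In the order of mean levels RRM1 stood first in both groups, whereas RRM2 stood below TYMS and TK1 with siBL1, without a gap to TK1, and next to RRM1 with siNT, without a gap to it.

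Of the thymidylate enzymes, TYMS was at 39.7 and 17.3 FPKM with siBL1 in H2009, against 80.8 and 37.2 FPKM with siNT, at a log2 change of -1.03 (SE 0.59, paired adjusted p = 0.000279 by limma), with overlapping groups but a lower value within each replicate number. ENOSF1, which overlaps TYMS on the opposite strand, was at -0.60 (SE 0.33, paired adjusted p = 0.00431 by limma). The library kit keeps strand, but how strand was used in counting is not stated in the labels, so reads of the pair may have been mixed. TK1 was at 40.4 and 12.9 FPKM with siBL1, against 37.9 and 18.3 FPKM with siNT. The siBL1 library was above its partner in replicate 1 and below it in replicate 2, and the log2 difference of -0.19 (SE 0.68) was called in neither fit (paired adjusted p = 0.296 by limma).

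**Figure D1:**
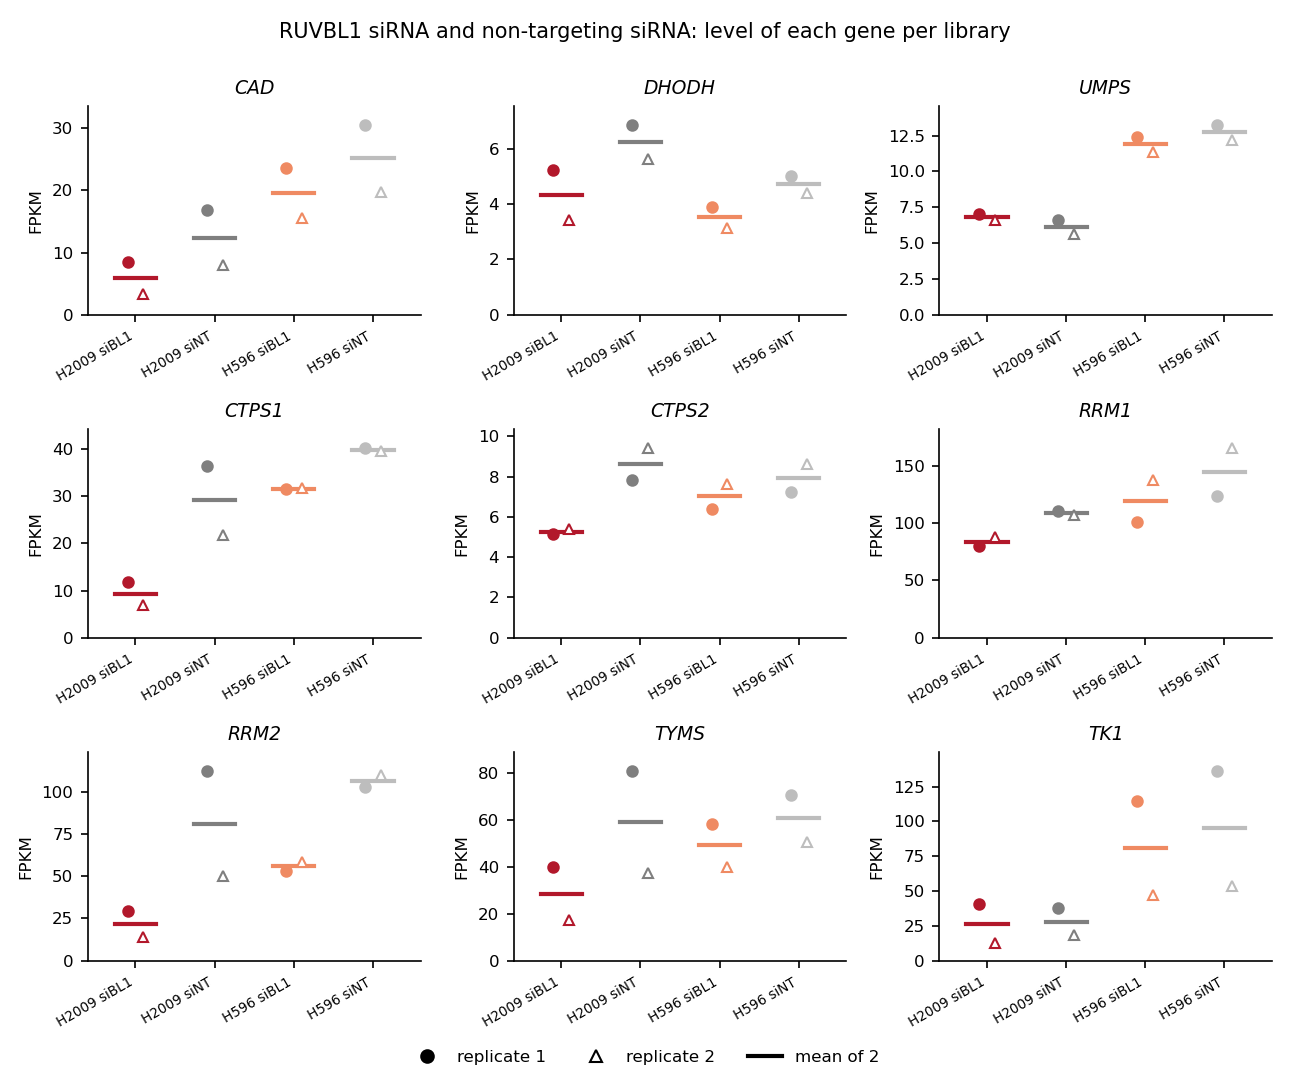
FPKM of each of the 9 enzymes by group in the siRNA tables of H2009 and H596, siBL1 left of siNT, with a filled circle for replicate 1, an open triangle for replicate 2 and a bar at the group mean; each panel has its own linear axis from 0. RRM2 averaged 21.6 FPKM with siBL1 and 81.1 FPKM with siNT in H2009, and 55.9 FPKM with siBL1 and 106.4 FPKM with siNT in H596.

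In H596 the knockdown also gave lower values for most members, largest for RRM2. The unpaired fit called 0 of 12004 genes (0%), though 137 had p under 0.05 before adjustment. The paired fit called 46.4% of them, 2377 as higher and 3197 as lower (19.8% and 26.6%). Of the 9 members the paired fit called 8, all lower, and the unpaired fit 0, and UMPS was the member not called (paired adjusted p = 0.103 by limma). The median log2 change was -0.30 over the members and -0.01 over all genes tested. Libraries with siBL1 lay below both siNT libraries for 3 members and overlapped for 6, against 8.64% of all genes that were lower without overlap. Harvest came after 3 days here and after 2.5 days in H2009, and each line has a table of its own, so the sizes in the lines stand side by side and their difference was not tested. The paired fit also called 5 of the 6 epithelial markers (median -0.31) and 3 of the 4 squamous markers (median -0.78) as lower and 0 of either as higher, and their part in the members' values was not tested.

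RRM2 was at 53.4 and 58.3 FPKM with siBL1 in H596, against 102.6 and 110.1 FPKM with siNT, with no overlap. The log2 change was -0.92 (SE 0.21, unadjusted p = 0.0117, unpaired adjusted p = 1, paired adjusted p = 3.99e-05 by limma). CTPS1 was at 31.5 and 31.7 FPKM with siBL1, against 40.2 and 39.5 FPKM with siNT, at -0.33 (SE 0.21, paired adjusted p = 0.000845 by limma), and DHODH at 3.89 and 3.14 FPKM with siBL1, against 4.999 and 4.41 FPKM with siNT, at -0.34 (SE 0.21, paired adjusted p = 0.00363 by limma). In these 3 genes both siBL1 libraries were below both siNT libraries. CAD was at 23.7 and 15.6 FPKM with siBL1 and 30.5 and 19.8 FPKM with siNT, at -0.34 (SE 0.36). The log2 changes of CTPS2, RRM1, TYMS and TK1 lay between -0.30 and -0.16, with overlapping groups and paired adjusted p between 0.00115 and 0.0262 by limma, and ENOSF1, the gene that overlaps TYMS, was at -0.21 (paired adjusted p = 0.00421). For each of the 9 members the siBL1 library was below its siNT partner in both replicate numbers, a count that was not made over all genes. The differences between replicates 1 and 2 correlated closely between siNT and siBL1 in H596 (Pearson r = 0.98 over 10300 genes). Agreement of the 2 pairs therefore adds little to the mean change.

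H2009 cells had lower DHODH and CTPS1 after 24 h with compound B, called in both fits. The unpaired fit called 1455 of 12781 genes (11.4%), with 813 higher and 642 lower (6.36% and 5.02%), and the paired fit called 44.6%, with 2833 higher and 2863 lower (22.2% and 22.4%). Of the 9 members the unpaired fit called 2 and the paired fit 6, all lower. The median log2 change was -0.55 over the members and -0.01 over all genes tested. Both libraries with compound B lay below both untreated libraries for 6 members and above both for UMPS, against 28.1% and 26.3% of all genes. NKX2-1 was at 25.6 and 18.7 FPKM with compound B, against 106.4 and 60.8 FPKM without treatment, a log2 change of -1.83 (SE 0.35, unpaired adjusted p = 0.0111 by limma) and so further from 0 than that of any member. Of the 6 epithelial markers the unpaired fit called 0, with 2 at p under 0.05 before adjustment, and the paired fit 1 as higher and 1 as lower. Their part in the members' values was not tested.

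DHODH was at 3.38 and 3.13 FPKM with compound B in H2009, against 9.22 and 7.73 FPKM without treatment, a mean 61.6% lower. All compound B libraries were below the untreated ones, at a log2 change of -1.15 (SE 0.19, unpaired adjusted p = 0.00608, paired adjusted p = 4.28e-05 by limma). CTPS1 was at 13.3 and 11.9 FPKM with compound B, against 30.5 and 27.2 FPKM without treatment, at -1.13 (SE 0.21, unpaired adjusted p = 0.0102, paired adjusted p = 3.5e-05 by limma), again without overlap. The unpaired call of CTPS1 was lost without compound B replicate 1 (adjusted p = 0.0626 by limma), compound B replicate 2 (0.0709) or untreated replicate 1 (0.0635), with log2 changes of -1.21, -1.06 and -1.05, and with the libraries of H2009 alone the call of DHODH was lost (adjusted p = 0.0544).

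Among the other members in H2009, CAD was at 10.1 and 9.19 FPKM with compound B, against 23.5 and 12.6 FPKM without treatment. The untreated replicates differed more from each other than the compound B ones did, and the log2 change was -1.14 within replicate 1 and -0.42 within replicate 2, with a mean of -0.78 (SE 0.34, unpaired adjusted p = 0.182, paired adjusted p = 0.0047 by limma). CTPS2 was at 3.55 and 4.78 FPKM with compound B, against 4.93 and 6.27 FPKM without treatment, at -0.36 (SE 0.19, paired adjusted p = 0.0227 by limma). RRM2 was at 87.3 and 63.6 FPKM with compound B, against 154.4 and 119.1 FPKM without treatment, at -0.86 (SE 0.30, unpaired adjusted p = 0.0995, paired adjusted p = 0.000673 by limma). TYMS was at 75.2 and 62.6 FPKM with compound B, against 117.5 and 86.2 FPKM without treatment, at -0.55 (SE 0.26, paired adjusted p = 0.00792 by limma), while ENOSF1 was at -0.12 (SE 0.22). In each of these 4 genes both compound B libraries were below both untreated ones. The paired calls of CTPS1, DHODH and RRM2 held when any 1 of the 4 libraries was left out. That of CTPS2 was lost without any one of them (adjusted p from 0.0667 to 0.116), that of CAD without replicate 1 of either group (0.068 without compound B replicate 1, at a log2 change of -0.39, and 0.0698 without untreated replicate 1) and that of TYMS without untreated replicate 1 (0.0915). With a block shared by both lines that of CTPS2 was lost too (0.0552).

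UMPS was at 8.73 and 8.19 FPKM with compound B in H2009, against 7.19 and 7.36 FPKM without treatment, at 0.19 (SE 0.17, paired adjusted p = 0.252 by limma). RRM1 was at 88.1 and 105.8 FPKM with compound B, against 94.97 and 124.8 FPKM without treatment, at -0.17 (SE 0.29), and at 0.01 after quantile normalization. TK1 was at 103.9 and 76.4 FPKM with compound B, against 125.0 and 56.1 FPKM without treatment, at 0.09 (SE 0.46), below its partner in replicate 1 and above it in replicate 2. None of these 3 was called in either limma fit, and the intervals (95%) of the unpaired fit, from -0.19 to 0.58 for UMPS, from -0.81 to 0.47 for RRM1 and from -0.95 to 1.13 for TK1, leave room for sizeable changes.

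**Figure D2:**
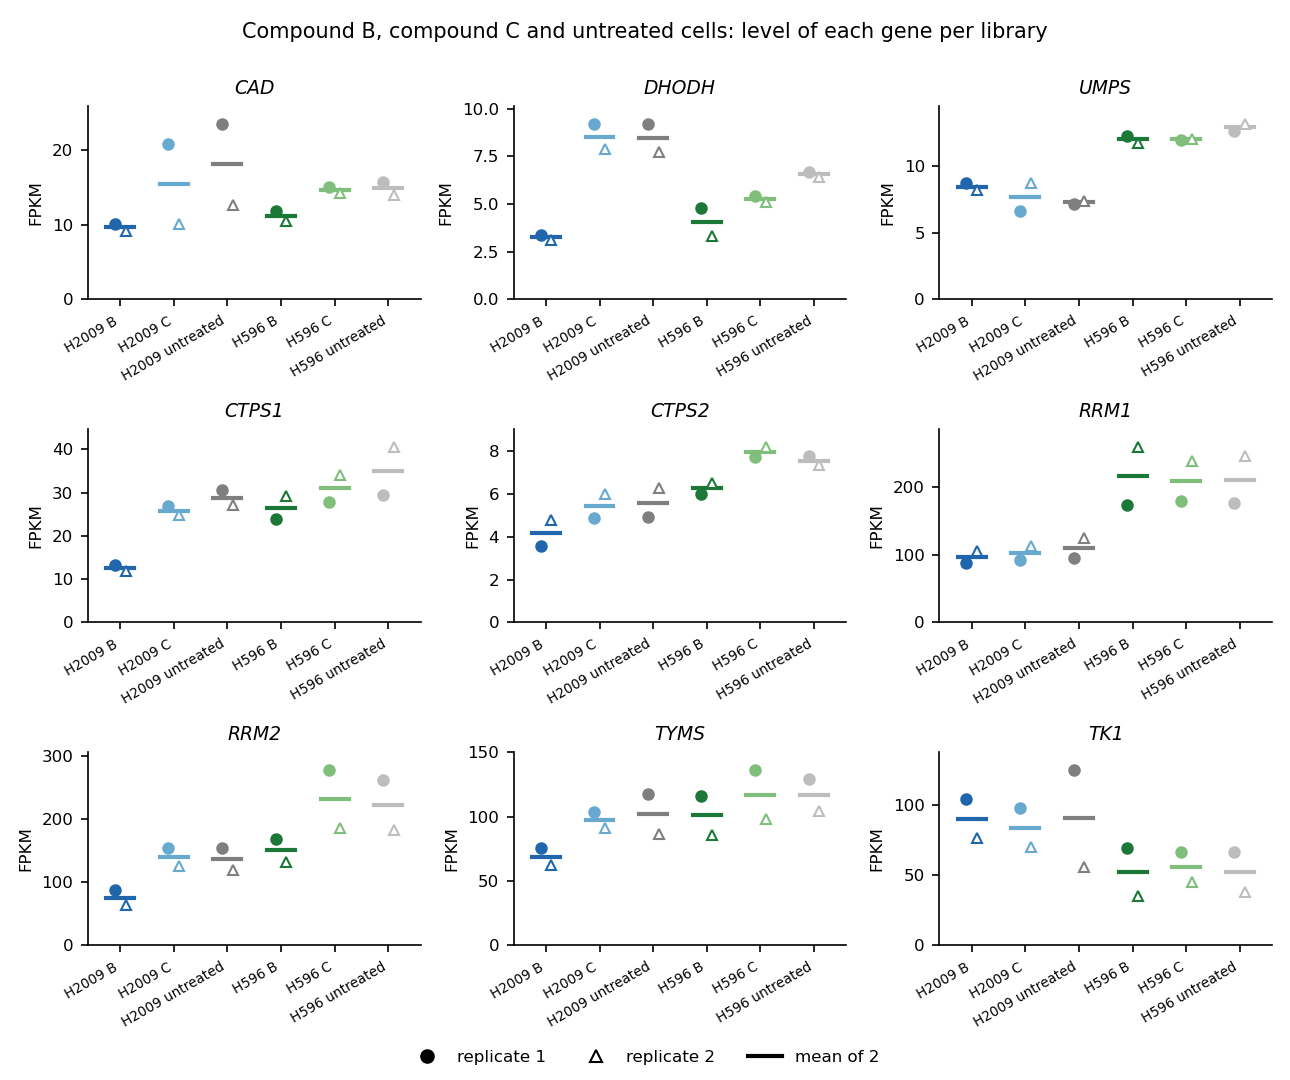
FPKM of each of the 9 enzymes with compound B, with compound C and without treatment, from left to right, in H2009 and H596, with a filled circle for replicate 1, an open triangle for replicate 2 and a bar at the group mean; each panel has its own linear axis from 0. DHODH in H2009 averaged 3.25 FPKM with compound B, 8.54 FPKM with compound C and 8.48 FPKM without treatment.

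In H596 compound B gave called differences in the paired fit only, for DHODH and RRM2. The unpaired fit called 0 of 12781 genes (0%), though 735 had p under 0.05 before adjustment. The paired fit called 6.67% of them, 484 as higher and 369 as lower (3.79% and 2.89%). Of the 9 members the paired fit called 2, both lower, and the unpaired fit 0, and the members' median log2 change was -0.24, against -0.03 over all genes. Both compound B libraries lay below both untreated libraries for 6 members, against 15.2% of all genes. Of the 4 squamous markers the paired fit called 2 as lower and 0 as higher (median -0.46). With compound C in H596 the unpaired fit called 0 of them, with 2 at p under 0.05 before adjustment (median -0.35). The part of these markers in the members' values was not tested. DHODH was at 4.79 and 3.33 FPKM with compound B, against 6.70 and 6.45 FPKM without treatment, at -0.60 (SE 0.19, unpaired adjusted p = 0.572, paired adjusted p = 0.0194 by limma). RRM2 was at 168.5 and 132.6 FPKM with compound B, against 262.7 and 182.1 FPKM without treatment, at -0.55 (SE 0.30, paired adjusted p = 0.0455 by limma). Both genes had their compound B libraries below the untreated ones. With compound C in H596 DHODH was also lower than in untreated cells, at -0.27 (SE 0.19), and was called in neither fit. The paired call of RRM2 was lost after quantile normalization (adjusted p = 0.107), with a block shared by both lines (0.0749) and without any one of the 4 libraries (0.199 to 0.412), and that of DHODH without compound B replicate 2 (0.277), untreated replicate 1 (0.119) or untreated replicate 2 (0.381).

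The remaining members in H596 were called in neither fit. CTPS1 was at 23.9 and 29.2 FPKM with compound B, against 29.3 and 40.6 FPKM without treatment, at -0.38 (SE 0.21, paired adjusted p = 0.0868 by limma). CAD was at 11.9 and 10.4 FPKM with compound B, against 15.8 and 14.0 FPKM without treatment, at -0.39 (SE 0.34), and CTPS2 at 6.00 and 6.53 FPKM with compound B, against 7.78 and 7.36 FPKM without treatment, at -0.24 (SE 0.19). These 3 and UMPS (-0.10) had compound B libraries below both untreated ones, whereas RRM1 (0.03), TYMS (-0.22) and TK1 (-0.02) overlapped.

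The effect of compound B in H596 minus that in H2009 was tested as a contrast within 1 table. CTPS1 differed by 0.76 on the log2 scale (SE 0.30), with -0.38 in H596 and -1.13 in H2009. It was not called in the unpaired fit (adjusted p = 0.464, with 0.454% of genes called) and was called in the paired fit (adjusted p = 0.0136 by limma, with 14.3% of genes called and 6.11% as higher). It was the only member called, and the call was lost without replicate 1 of H596 with compound B (adjusted p = 0.0724), of untreated H2009 (0.052) or of untreated H596 (0.139), without replicate 2 of untreated H596 (0.0615), and with a block shared by both lines (0.0815). DHODH differed by 0.55 (SE 0.27, paired adjusted p = 0.0602 by limma, and 0.0338 after quantile normalization, at 0.61), and the other 7 members lay between -0.29 and 0.40.

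Compound C, given at the dose and time of compound B, gave no called difference in the 9 enzymes. In H2009 the log2 changes against untreated cells ran from -0.23 for CAD to 0.06 for UMPS and in H596 from -0.27 for DHODH to 0.12 for TK1. The members called numbered 0 in either line by either limma fit, and 0 had an unadjusted p under 0.05. The unpaired fit called 1 gene in H2009 (0.00782%) and the paired fit 2 (0.0156%), and in H596 both called 0 (0%), where 20 genes unpaired and 182 paired had an unadjusted p under 0.05. The intervals (95%) of the unpaired fit reached from -1.06 to 1.02 over the members in H2009 and from -0.92 to 1.16 in H596, so a missing call does not show an equal level. CTPS1 had both compound C libraries below both untreated ones in H2009 (26.9 and 24.7 FPKM, against 30.5 and 27.2 FPKM), as did DHODH in H596 (5.41 and 5.11 FPKM, against 6.70 and 6.45 FPKM) and UMPS there, against 2.53% of all genes in H2009 and 7.37% in H596.

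Set against compound C in H2009, compound B again had lower DHODH and CTPS1. The pair of compounds was compared once per line, for each member, within the fit over all genes. DHODH was at 3.38 and 3.13 FPKM with compound B, against 9.19 and 7.89 FPKM with compound C, a log2 difference of -1.16 (SE 0.19, unpaired adjusted p = 0.00603 by limma), and CTPS1 at 13.3 and 11.9 FPKM with compound B, against 26.9 and 24.7 FPKM with compound C, at -0.98 (SE 0.21, unpaired adjusted p = 0.019 by limma). These were the 2 members called by the unpaired fit, which called 11.4% of all genes (6.16% as higher and 5.28% as lower), and the call of CTPS1 was lost without either replicate of compound B (0.0902 and 0.117) or of compound C (0.0536 and 0.0602) and with the libraries of H2009 alone (0.0599), as was that of DHODH with that line alone (0.0578). The paired fit, which called 45.6% of all genes (24% as lower), also called RRM2 at -0.89, CAD at -0.55, TYMS at -0.50 and CTPS2 at -0.32 as lower. Of these, the call of RRM2 held when any 1 library was left out, that of CTPS2 was lost without any one of them (adjusted p from 0.0685 to 0.149), that of CAD without replicate 1 of compound B (0.428, at a log2 difference of -0.16) or of compound C (0.26, at -0.30) and that of TYMS without compound B replicate 1 (0.0627), without compound C replicate 2 (0.0507) or after quantile normalization (0.0846). A block shared by both lines also ended those of CAD (0.0684) and CTPS2 (0.0763). In H596 the same contrast called 0 members in the unpaired fit (0.00782% of genes) and RRM2 in the paired fit, at -0.60 (SE 0.30, paired adjusted p = 0.0388, where the fit called 4.66% of genes, 2.99% as higher and 1.67% as lower), and that call was lost without any one of the 4 libraries (0.18 to 0.314), after quantile normalization (0.0505) and with a block shared by both lines (0.0654). DHODH in H596 was at -0.32 with compound B against compound C (SE 0.19, paired adjusted p = 0.185 by limma) and was called in neither fit. The contrasts against compound C in both lines share the compound B libraries with those against untreated cells.

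**Figure D3:**
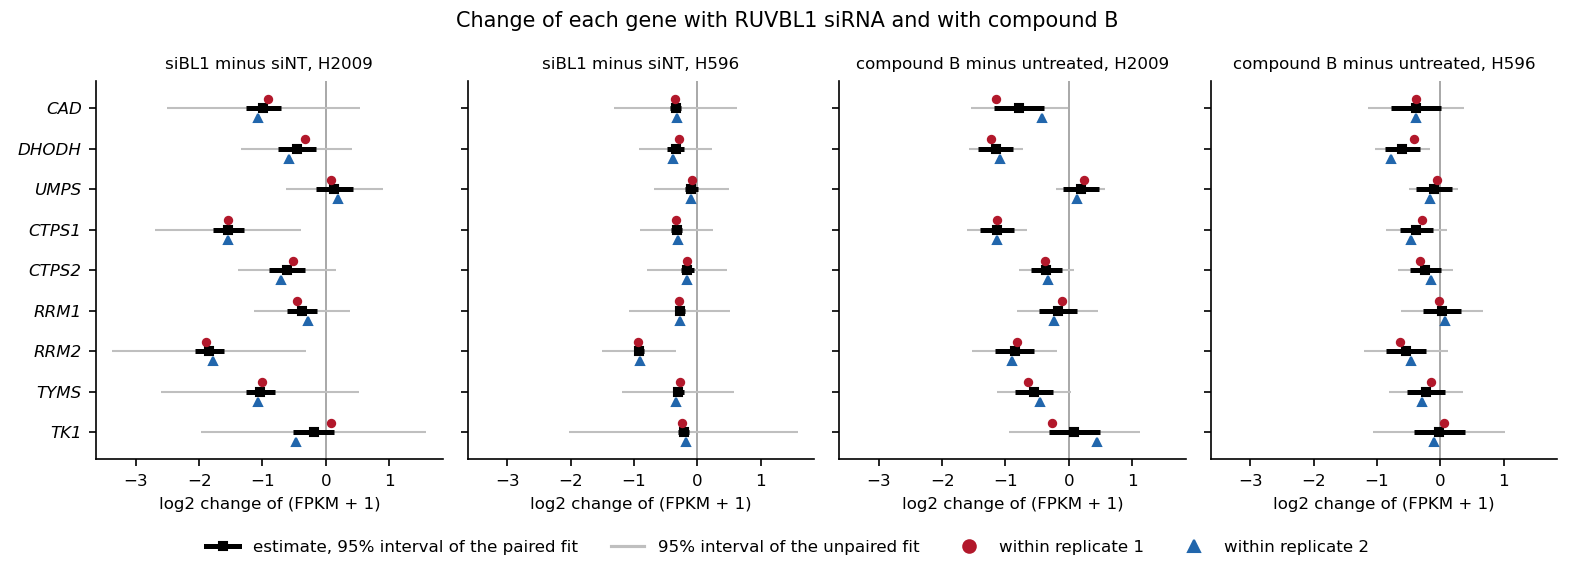
Log2 change of each enzyme on log2(FPKM + 1) for siBL1 minus siNT and for compound B minus untreated in H2009 and H596, with a square at the estimate, a thick black bar for the 95% interval of the paired fit, a thin grey bar for that of the unpaired fit, a circle for the change within replicate 1 and a triangle for that within replicate 2; the vertical line marks 0. RRM2 was at -1.84 and -0.92 after siBL1 in H2009 and H596, while TK1 lay between -0.21 and 0.09 in the 4 panels.

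The enzymes also varied between replicate numbers, some more than between treatments. TK1 had more RNA in replicate 1 than in replicate 2 in 10 of 10 groups, with a ratio between 1.36 and 3.13 and a median of 2.02, while its log2 changes between treatments lay between -0.21 and 0.12. CAD, DHODH and TYMS were likewise higher in replicate 1 in 10 of 10 groups, with median ratios of 1.53, 1.18 and 1.38. RRM1 and CTPS2 went the other way and were higher in replicate 1 in 1 of 10 groups each, with median ratios of 0.755 and 0.838. What separates the replicates is not stated in the labels, and its part in these results was not tested.

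Across the 12 libraries of the compound table, with each line's mean taken off, RRM2 and TYMS were the members most alike (Pearson r = 0.95), followed by DHODH with CTPS1 (0.88) and with RRM2 (0.87). RRM1 and TK1 were most opposed (-0.95), and UMPS was negatively correlated with each member other than RRM1. Of all genes tested, those most like CAD were WHSC1, GEMIN4 and SMARCA4 (each r = 0.97), those most like CTPS1 were PSMD3 (0.99), POGK (0.98) and RPS6KA1 (0.98), and those most like RRM2 were MPZL1 (0.98), COQ2 (0.97) and SH3GLB1 (0.97). The median r of all genes was 0.14 with CAD, 0.00 with CTPS1 and 0.17 with RRM2. The libraries share treatments, replicate numbers and depth, so these values are descriptions.

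Of 34 other genes of pyrimidine and dNTP metabolism, 29 were tested in the H2009 siRNA table, and the paired fit called 3 as higher and 10 as lower (0 in the unpaired fit, with 4 at p under 0.05 before adjustment). Since that fit called 15.4% of all genes as higher and 27% as lower, these counts are near the background. The 3 largest changes without overlap between the groups were those of SAMHD1, a dNTP hydrolase (-1.19, SE 0.28), and the folate cycle enzymes MTHFD1L (-1.18, SE 0.41) and SHMT1 (-1.06, SE 0.34), with paired adjusted p of 0.000201, 0.000673 and 0.000403 by limma. SAMHD1 was at 12.2 and 11.6 FPKM with siBL1 in H2009, against 28.7 and 28.4 FPKM with siNT, and at 34.6 and 32.3 FPKM with siBL1 in H596, against 22.9 and 22.8 FPKM with siNT. Its libraries thus lay below the controls in H2009 and above them in H596, where the change was 0.53 (SE 0.21, paired adjusted p = 0.000248 by limma), a contrast between lines that was not tested. In H596, of 31 genes tested after siBL1, the paired fit called 6 as higher and 13 as lower, against 19.8% and 26.6% of all genes, among them the mitochondrial nucleotide kinase CMPK2 at 0.62 (SE 0.23) and the cytosolic folate enzyme MTHFD1 at -0.33 (SE 0.21). By role, and with few genes in each, the paired fit called as lower 3 of 6 genes of the folate cycle that serves TYMS in H2009 and 4 of 6 in H596, with 1 and 0 as higher. Of the dNTP balance genes, which include SAMHD1, it called 0 of 7 as higher and 3 as lower in H2009, and 3 of 8 as higher and 2 as lower in H596. The median log2 change of the other pathway genes was -0.20 in H2009 and -0.10 in H596, against -0.08 and -0.01 over all genes.

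After compound B in H2009, of 32 such genes the unpaired fit called 3 as higher and 3 as lower, and the paired fit 4 and 10, with a median log2 change of -0.16 against -0.01 over all genes. The unpaired fit called 11.4% of all genes and the paired fit 44.6%, so the paired count of 14 in 32 is near the background. TK2, the mitochondrial thymidine kinase, was at 4.86 and 3.45 FPKM with compound B, against 1.28 and 0.66 FPKM without treatment, a log2 change of 1.39 (SE 0.30, unpaired adjusted p = 0.0174 by limma). It was thus called as higher where the cytosolic enzyme TK1 was not called. MTHFD1L was at 17.5 and 15.9 FPKM with compound B, against 43.9 and 34.6 FPKM without treatment, at -1.18 (SE 0.25, unpaired adjusted p = 0.0178 by limma). MTHFD1, which with SHMT enzymes feeds the folate carrier of TYMS, was at 23.6 and 26.1 FPKM with compound B, against 53.4 and 58.0 FPKM without treatment, at -1.13 (SE 0.16, unpaired adjusted p = 0.00326 by limma). In H596 with compound B the unpaired fit called 0 of the 32, with 6 at p under 0.05 before adjustment, and the paired fit 3 as higher and 2 as lower, against 3.79% and 2.89% of all genes. The largest changes without overlap were those of the dCTP pyrophosphatase DCTPP1 at -0.75 (SE 0.33), MTHFD1L at -0.72 (SE 0.25, paired adjusted p = 0.0184 by limma) and the nucleoside diphosphate kinase NME2 at -0.53 (SE 0.31). NME2 has a near-identical neighbour in NME1, so its value is uncertain.

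**Figure D4:**
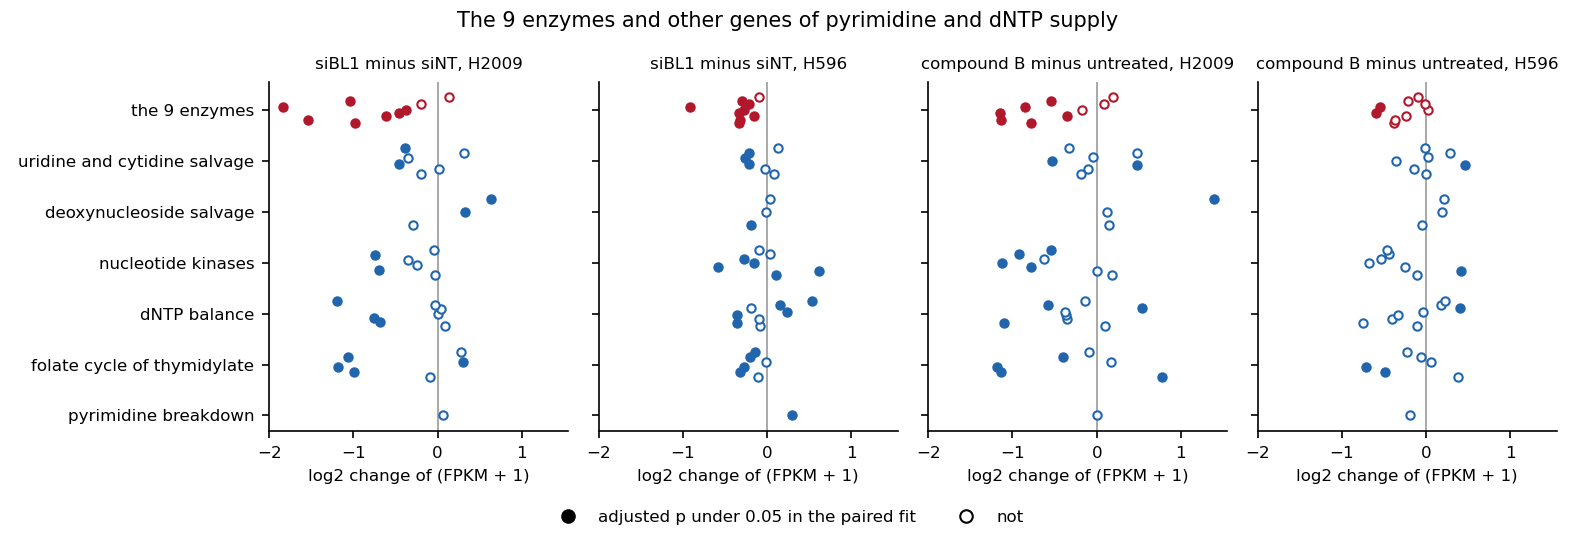
Log2 change of the 9 enzymes and of the other listed genes of pyrimidine and dNTP metabolism after siBL1 and after compound B in H2009 and H596, with 1 point per gene, grouped by role, filled where the paired fit called the gene; the line marks 0. TK2 stood at 1.39 and MTHFD1L at -1.18 after compound B in H2009.

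Genes of S phase and proliferation were counted beside the enzymes. Of 18 such genes, with no member among them, the unpaired fit called 0 after siBL1 in either line (1 at p under 0.05 before adjustment in H2009 and 0 in H596), and the paired fit called 12 as lower and 0 as higher in H2009 (median log2 change -0.51), and 14 as lower and 1 as higher after siBL1 in H596 (median -0.22). The same fit called 27% of all genes as lower and 15.4% as higher in H2009 (median -0.08), and 26.6% and 19.8% in H596 (median -0.01). After compound B in H2009 the unpaired fit called 3 as lower and 0 as higher (median -0.44), and the paired fit called 10 as lower and 2 as higher, against 5.02% of all genes as lower unpaired, and 22.4% as lower and 22.2% as higher paired (median -0.01). In H596 with compound B the unpaired fit called 0, with 1 at p under 0.05 before adjustment, and the paired fit 1 as lower (median -0.15), against 2.89% of all genes. With compound C both fits called 0 of these genes and 0 of the other pathway genes in H2009 and in H596. PCNA was at 116.2 and 52.5 FPKM with siBL1 in H2009, against 245.4 and 107.5 FPKM with siNT, with overlapping groups. Its log2 change was -1.05 (SE 0.61, paired adjusted p = 0.000282 by limma). MKI67 was at 216.9 and 199.7 FPKM with siBL1, against 242.7 and 238.2 FPKM with siNT, at -0.21 (SE 0.30). Its siBL1 libraries were below both siNT libraries, as in 18.9% of all genes. E2F1 was at -0.49 (SE 0.59) after siBL1 in H2009 and at 0.37 (SE 0.41) after compound B there. The part of a changed share of cells in S phase in the values of the 9 enzymes was not tested.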

How the data were processed

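RNA was prepared with a stranded mRNA library kit, per the labels' protocols, and the deposited values are FPKM per gene made on hg19 with Cufflinks 2.2.1, TopHat2 2.0.12 and CASAVA 1.8.2, per the submitters' processing notes; pooling, filters and the strand setting are not given in the sources used here. FPKM scales each library to its mapped reads, so a few abundant genes can shift all others, and no test crosses the 3 tables, which may not share a scaling.

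log2(FPKM + 1) was fitted with limma 3.58.1 in R 4.3.3 (mean-variance trend, Benjamini-Hochberg over all genes of a table with a mean of at least 1 FPKM, for the compounds in 1 line or both). On this scale the changes of genes with low FPKM are understated. The fits were tested on simulated data, but no result of that test is given here. The comparisons of the siRNA used the 4 libraries of a table, and those of the compounds the 12 libraries of both lines.

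The replicate numbers come from the sample titles. The differences between replicates 1 and 2 correlated in all 45 pairs of the 10 groups (Pearson r from 0.48 to 0.98 over 10300 genes), which led to the paired fit. What a number marks is not in the labels, each group has 2, and this judgement was made with the counts of calls already known.

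The members and gene lists were chosen with earlier results of these data known. Other pathway genes named were, per comparison, the 3 with the largest change whose treated libraries all lay beyond both controls. Entries in the form of dates in the H2009 siRNA table, and the study's sequenced cDNA libraries, which hold no expression values, were left out.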

Additional observations from a re-analysis of the deposited data

Results flagged for a closer look

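The effect of compound B on CTPS1, against untreated cells, differed between the lines by 0.76 on the log2 scale (H596 minus H2009) in the paired limma fit (adjusted p = 0.0136). It was higher in H596 within both replicate numbers, by 0.85 and 0.67. The unpaired fit did not call it (adjusted p = 0.464), and the paired call was lost without any one of 4 libraries named in the results.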

How the results depend on the processing

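Each group has 2 libraries, so every call rests on few degrees of freedom, and read depth cannot be had from FPKM. Values of single members were tallied over the alternatives, except the paired fits with a library left out. Calls lost in those fits are named in the results and come on top of the tally. The untreated lines against each other and compound C against untreated cells were not tallied either. In the tally 721 values kept direction and side of the threshold, 41 changed sign, 28 gained a call and 20 lost one, and the cause was not tested. None of the values that changed sign was called.

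With the block within each line the calls numbered 4758 genes and 7 members for siBL1 in H2009, 5574 and 8 for siBL1 in H596, 5696 and 6 for compound B against untreated in H2009, 853 and 2 for the same in H596, 5829 and 6 for compound B against compound C in H2009, 595 and 1 for the same in H596, 1828 and 1 for the difference of the compound B effect between lines, 8863 and 6 between the untreated lines, and 2 genes for compound C in H2009. With a block shared by both lines these fell to 287 and 1 for compound B in H596, to 198 and 0 for compound B against compound C there, and to 1053 and 0 for the difference between lines. The block with quantile normalization called 1 member for compound B in H596, 0 for compound B against compound C there, and 2 for the difference between lines.

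With log2(FPKM + 0.1) the unpaired fit called 2 genes for compound C in H2009, 0 for compound B against compound C in H596 and 12 for the difference between lines. Without a filter on low values it called 0 and 102 for these last comparisons, and without the mean-variance trend 0 and 29. Quantile normalization gave 110 genes for the difference between lines and 6 for compound B in H596. It changed the sign of RRM1 in H2009 (0.014 against untreated and 0.14 against compound C), of TK1 with compound B in H596 (0.067) and of UMPS for compound B against compound C in H596 (0.030), in both fits. With the libraries of 1 line alone compound B called 536 genes and 1 member against untreated cells in H2009, and 514 and 0 against compound C, and 0 genes against compound C in H596.

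Leaving out 1 library at a time, compound B against untreated in H2009 called 353 to 660 genes and 1 to 2 members unpaired, and 3793 to 4320 genes and 3 to 5 members paired, with RRM1 from -0.37 to 0.023 and TK1 from -0.48 to 0.66. Against compound C in H2009 the counts were 345 to 1634 genes and 1 member unpaired, and 3834 to 5907 genes and 3 to 5 members paired, with UMPS from -0.037 to 0.31, RRM1 from -0.22 to 0.053 and TK1 from -0.13 to 0.35. Compound C in H2009 called 1 to 2 genes unpaired and 2 to 4 paired. In H596 compound B against untreated called 0 to 1 gene unpaired and 33 to 370 genes and 0 to 1 member paired, with RRM1 from -0.26 to 0.32 and TK1 from -0.49 to 0.46. Against compound C in H596 it called 0 genes unpaired, and 25 to 169 genes and 0 members paired, with UMPS from -0.029 to 0.028, RRM1 from -0.25 to 0.33, TYMS from -0.45 to 0.028 and TK1 from -0.61 to 0.34. The difference between lines called 8 to 31 genes unpaired and 612 to 1257 genes and 0 to 2 members paired, with CAD from -0.027 to 0.82, CTPS2 from -0.054 to 0.29, RRM1 from -0.092 to 0.49 and TK1 from -0.68 to 0.47. Between the untreated lines 1 to 2 members were called unpaired. For siBL1 the unpaired fit called 1 to 12 genes in H2009, with TK1 from -0.98 to 0.59, and 4 to 8 genes in H596, with TK1 from -0.88 to 0.45. The paired siRNA fits could not be fitted with a library left out, since no residual degree of freedom remains.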
